A study of Mus musculus with 2 samples.

Results

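Glutathione, thioredoxin and NRF2 target genes are described here in white fat of obese mice given entacapone or vehicle. They were taken by symbol: protein-coding genes of the cytosolic glutathione transferase classes, the glutathione peroxidases, the peroxiredoxins and all genes whose symbol starts with Txn. To these were added Gclc, Gclm, Gsr, Nqo1, Srxn1, Cat, Sod1, Sod2, Sod3, Nfe2l2 and Keap1. This gave 66 of the 37315 genes listed. Of these, 55 were measured, meaning a mean of at least 1 CPM (counts scaled to library size) over both libraries, and 6 of the other 11 had no read in either library.

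The entacapone group was 1 library of white adipose tissue from C57BL/6 male mice, 23 weeks old, with obesity induced by a high-fat diet, treated with Entacapone. The vehicle group was 1 library from mice of the same strain, sex, age, diet and tissue, treated with vehicle. The series' design text names the inguinal depot. The labels state neither the dose nor how long it was given, nor how many mice each library holds. Entacapone is a drug prescribed in Parkinson disease, and among its targets is the RNA demethylase FTO.

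Glutathione and thioredoxin are the main thiol reductants of the cell, and both are kept reduced by NADPH-dependent reductases. Glutathione transferases couple glutathione to reactive compounds, among them aldehydes from oxidised lipids, while glutathione peroxidases and peroxiredoxins reduce peroxides. NRF2, held in check by KEAP1, activates many of these genes through antioxidant response elements in their promoters. In adipocytes this network handles the peroxides and lipid aldehydes that accompany lipid storage and oxidation.

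The libraries held 12979673 (entacapone) and 13620056 (vehicle) counted reads. Since each group is 1 library, no replicate error can be had and nothing was tested: every difference is between these 2 libraries. Each ratio is entacapone over vehicle with an exact 95% interval that covers counting error only. A gene is called higher or lower beyond counting error where that interval excludes a ratio of 1. All 7 adipocyte markers were abundant, of which 3 were higher and 4 lower by this rule: Adipoq stood at 3118 CPM with entacapone against 2867 with vehicle and Lep at 4639 CPM with entacapone against 6209 with vehicle. Markers of several other tissues differed between the libraries. Hepatocyte markers were lower in the entacapone library for 11 of 11 measured genes, at a summed 86.0 CPM with entacapone against 381 with vehicle. Macrophage markers were lower for 12 of 12 (885 CPM with entacapone against 1756 with vehicle) and fibroblast markers for 6 of 7 (3943 CPM with entacapone against 6024 with vehicle). Skeletal muscle markers were higher for 11 of 12 (2118 CPM with entacapone against 1393 with vehicle), epithelium markers for 6 of 9 (93.0 CPM with entacapone against 26.9 with vehicle) and red cell markers for 5 of 5 (467 CPM with entacapone against 283 with vehicle). Endothelial markers summed to 776 CPM with entacapone against 772 with vehicle. Fewer cells of a type and less RNA per cell cannot be told apart in such tissue libraries. Where the reads of the hepatocyte, muscle, epithelium and red cell markers came from was not tested.

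The members took 1.18% of the entacapone and 1.01% of the vehicle reads. Of the 55 measured members, 29 were higher and 7 lower beyond counting error in the entacapone library, and 19 lay within it. Over all 13361 measured genes, 20.2% were higher and 21.1% lower by the same rule, against 52.7% and 12.7% of the measured members. This rule passes small differences in abundant genes, and 20 members stood above 100 CPM in both libraries. By size, 8 members (14.5%) were at least 1.5-fold higher and 0 at least 1.5-fold lower, where the shares over all measured genes were 4.16% and 7.9%. At least 2-fold, 3 members were higher (Gsta4, Gstm6 and Nqo1) and 0 lower, beside 1.66% and 3.5% of all measured genes. Over the 55 measured members the log2 ratio had a median of 0.15, beside 0.00 over all measured genes, and 85.5% of the members lay within 1.5-fold, beside 85.2% of all genes.

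Per kilobase of exon, the most abundant members were peroxide-removing enzymes and Txnip. The length used merges all annotated exons of a gene, so this order depends on the annotation. Gpx1 led with 819 CPM per kilobase in the entacapone and 572 in the vehicle library. Gpx4 followed at 611 with entacapone against 491 with vehicle, Txnip at 619 with entacapone against 406 with vehicle, and Cat at 470 with entacapone against 350 with vehicle. Sod3 came next at 305 with entacapone against 332 with vehicle. By this measure Txnip stood above Gpx4 in the entacapone library and below it in the vehicle library. By CPM, without a length, Txnip stood above Gpx4 in both. The values were 1933 against 1054 CPM in the entacapone library and 1268 against 846 CPM in the vehicle library.

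**Figure D1:**
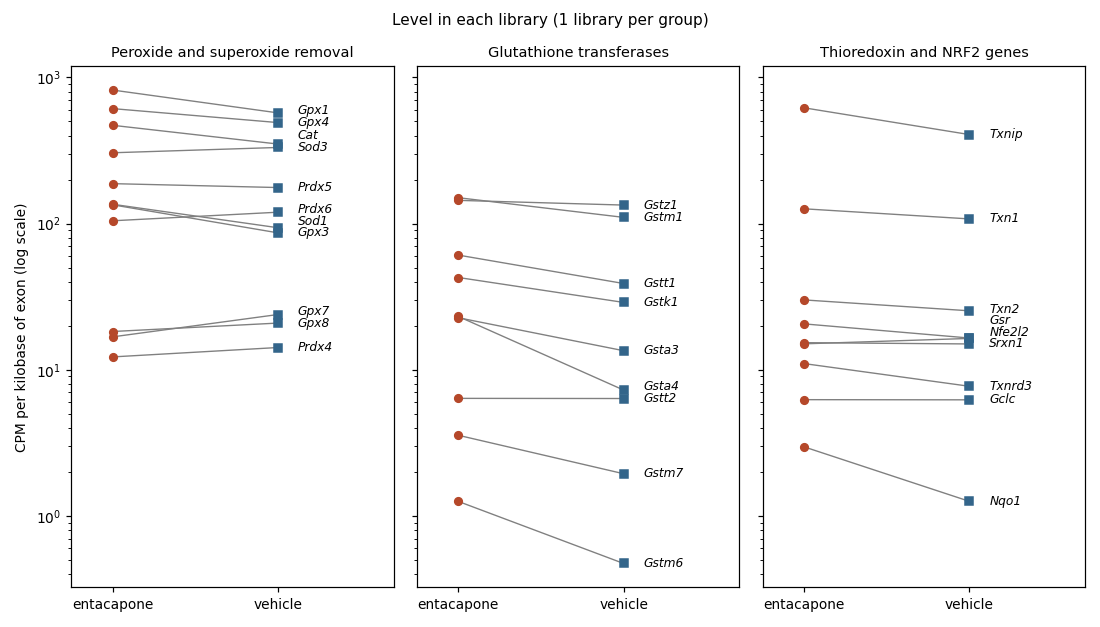
Level of selected members in CPM per kilobase of exon (log scale) in the entacapone library (circles, left) and the vehicle library (squares, right), joined by a line for each gene. Most of these selected lines slope down to the vehicle library, most steeply that of Gsta4, with 23.1 in the entacapone and 7.26 in the vehicle library. Those of Prdx4, Gpx7, Gpx8, Prdx6, Sod3 and Nfe2l2 slope up. No thioredoxin-domain gene is drawn. Over all 55 measured members the log2 ratio was above 0 for 41 and below 0 for 14.

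Glutathione transferases held the 2 largest differences among the measured members, Gsta4 and Gstm6. Of 22 members in this family, 17 were measured, 12 of them were higher beyond counting error, 0 were lower and 5 lay within it. These are 70.6% higher and 0% lower, beside 20.2% and 21.1% of all measured genes and 52.7% and 12.7% of the measured members. The median log2 ratio of the family was 0.42. Summed over the family, transferase reads stood at 1622 CPM with entacapone against 1360 with vehicle. In the same library epithelium and muscle markers were higher and hepatocyte markers lower, and their part in these values was not tested.

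The alpha class differed most. Gsta4, whose enzyme conjugates 4-hydroxynonenal from oxidised lipids, had 375 reads (29.3 CPM) in the entacapone and 127 reads (9.19 CPM) in the vehicle library. This is 3.19-fold higher (interval 2.60 to 3.93). The gene (ENSMUSG00000032348) lies on chromosome 9, 78182774 to 78209349 (GRCm38). Gsta3 had 98.5 CPM with entacapone against 58.6 with vehicle, or 1.68-fold (1.54 to 1.84). Gsta4 reads per Gsta3 read, a ratio that no scaling of the libraries can alter, were 0.297 with entacapone against 0.157 with vehicle. The classmates thus differed unequally (ratio 1.90, 1.52 to 2.38). This pair and those below were chosen after their values were seen, so that choice favours intervals that exclude 1. Gsta1 had 1 read with entacapone and 2 with vehicle, and Gsta2 had 0 in both libraries.

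In the mu class, a cluster of genes on chromosome 3, 5 of 6 measured members were higher beyond counting error. The share over all measured genes was 20.2%. Gstm1, the most abundant, stood at 221 CPM with entacapone against 162 with vehicle (log2 ratio 0.45, 0.37 to 0.53). Gstm6 had 32 reads with entacapone against 13 with vehicle, a 2.66-fold ratio with a wide interval of 1.36 to 5.52. Gstm7 had 73 reads with entacapone against 43 with vehicle (1.83-fold, 1.24 to 2.74). Gstm5 was at 22.4 CPM with entacapone against 16.8 with vehicle and Gstm4 at 22.3 CPM with entacapone against 18.6 with vehicle. The Gstm4 interval touched a ratio of nearly 1 (log2 0.26, 0.02 to 0.51). Gstm2 lay within counting error at 115 CPM with entacapone against 110 with vehicle. Gstm1 reads per Gstm2 read were 1.92 with entacapone against 1.47 with vehicle (ratio 1.30, 1.19 to 1.43). Gstm3 had 0 reads with entacapone against 3 with vehicle.

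Near-identical sequence limits some of these values. Of the 101-base stretches in Gstm1 transcripts, 5.60% also occur in transcripts of another gene. The share was 5.5% for Gstm5, 1.06% for Gstm6 and 0.0% for Gsta4, Gsta3 and Gstm7. In the pi class the share was 24.9% for Gstp1 and 46.8% for Gstp2, each chiefly with the other, so their split is uncertain. Gstp1 had 79.8 CPM with entacapone against 69.0 with vehicle and Gstp2 3.67 CPM with entacapone against 4.05 with vehicle, the second within counting error. Gstp3, under 1 CPM, had 9 reads with entacapone against 2 with vehicle (4.86-fold, 1.01 to 46.2).

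In the remaining classes, Gstt1 and Gstk1 were higher and the omega class was not. Gstt1 stood at 93.0 CPM with entacapone against 59.4 with vehicle (1.56-fold, 1.43 to 1.71). Its neighbour Gstt2 stood at 26.5 CPM with entacapone against 26.4 with vehicle, within counting error, and Gstt1 reads per Gstt2 read were 3.51 with entacapone against 2.25 with vehicle. Gstt3 was at 6.95 CPM with entacapone against 4.85 with vehicle (log2 ratio 0.52, 0.05 to 1.0), and Gstt4 had 0 reads with entacapone against 2 with vehicle. Gstk1, also known for helping adiponectin assemble, had 62.8 CPM with entacapone against 42.4 with vehicle (log2 ratio 0.57, 0.41 to 0.72). Gstz1, an enzyme of tyrosine breakdown, differed little, with 733 CPM with entacapone against 681 with vehicle (log2 ratio 0.11, 0.07 to 0.15). Of its exonic bases, 12.2% lie under exons of Pomt2, and this kit does not mark the strand. Gsto1, which reduces dehydroascorbate, had 96.7 CPM with entacapone against 91.1 with vehicle and Gsto2 1.02 CPM with entacapone against 1.16 with vehicle, both within counting error.

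**Figure D2:**
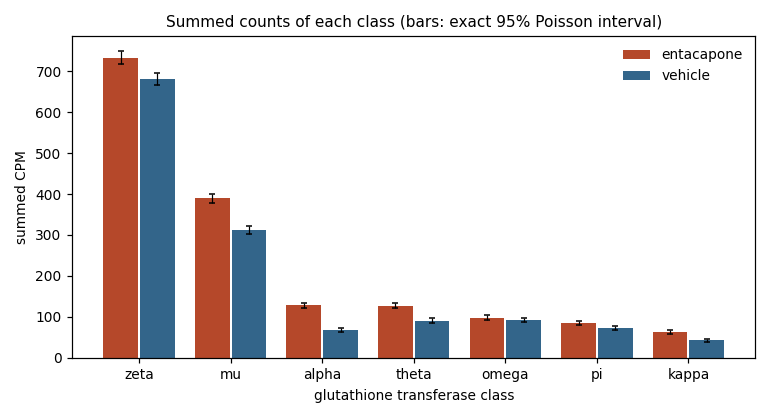
Summed CPM of each glutathione transferase class in the entacapone library (left bar of each pair) and the vehicle library (right bar), with exact 95% Poisson intervals. The alpha class stands at 128 CPM with entacapone against 68.0 with vehicle and theta at 126 CPM with entacapone against 90.9 with vehicle, while the zeta class is at 733 CPM with entacapone against 681 with vehicle.

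Of 5 measured glutathione peroxidases, Gpx1, Gpx3 and Gpx4 were higher beyond counting error and Gpx7 was lower. By the same rule 20.2% of all measured genes were higher and 21.1% lower. Gpx1, the main peroxidase for soluble peroxides, stood at 1180 CPM with entacapone against 824 with vehicle (log2 ratio 0.52, 0.48 to 0.55). Gpx3, the secreted plasma enzyme, stood at 244 CPM with entacapone against 157 with vehicle (1.56-fold, 1.47 to 1.64). Gpx4, which reduces lipid hydroperoxides in membranes, stood at 1054 CPM with entacapone against 846 with vehicle (log2 ratio 0.32, 0.28 to 0.35), with 25.1% of its 101-base stretches shared, chiefly with the pseudogene Gpx4-ps2. Gpx7, of the endoplasmic reticulum, was lower at 21.6 CPM with entacapone against 30.8 with vehicle, or 1.42-fold lower (log2 ratio -0.51, -0.73 to -0.29). Gpx8, also of the endoplasmic reticulum, was at 19.1 CPM with entacapone against 21.9 with vehicle, within counting error. Gpx1 reads per Gpx7 read were 54.5 with entacapone against 26.8 with vehicle (ratio 2.04, 1.74 to 2.38). As this pair sets a higher member against a lower one, the ratio adds nothing beyond their values. Gpx2 had 3 reads with entacapone against 0 with vehicle, and Gpx5 and Gpx6 had 0 in both libraries.

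Catalase and Sod1 were higher, Sod3 was lower and Sod2 lay within counting error. Cat, the peroxisomal hydrogen peroxide enzyme, had 1228 CPM with entacapone against 914 with vehicle (log2 ratio 0.43, 0.39 to 0.46). Sod1, the cytosolic copper and zinc dismutase, had 538 CPM with entacapone against 372 with vehicle (0.53, 0.48 to 0.59). Sod2 of mitochondria lay within counting error at 219 CPM with entacapone against 213 with vehicle. Sod3, the extracellular enzyme and the dismutase with the most reads, was slightly lower at 1140 CPM with entacapone against 1239 with vehicle (-0.12, -0.15 to -0.09). Sod1 reads per Sod3 read were 0.472 with entacapone against 0.300 with vehicle (ratio 1.57, 1.51 to 1.64). Red blood cells are rich in catalase, Gpx1, Sod1 and Prdx2 protein. Red cell markers were higher in the same library, led by Hbb-bs at 258 CPM with entacapone against 157 with vehicle, with Slc4a1 at 1 read with entacapone and 0 with vehicle. Their part in these 4 values was not tested.

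Peroxiredoxins differed little. Of 7 members, 6 were measured, 4 were higher and 2 lower beyond counting error, beside 20.2% and 21.1% of all measured genes. The summed level of the peroxiredoxins was 1490 CPM with entacapone against 1494 with vehicle. Prdx1 (301 CPM with entacapone against 284 with vehicle), Prdx2 (142 CPM with entacapone against 127 with vehicle), Prdx3 of mitochondria (117 CPM with entacapone against 102 with vehicle) and Prdx5 (401 CPM with entacapone against 377 with vehicle) were higher. Their log2 ratios lay between 0.09 and 0.20. With total counts in place of scaled library sizes, Prdx1 and Prdx5 lay within counting error. Prdx6, the abundant 1-cysteine enzyme that also acts on phospholipids, was lower at 502 CPM with entacapone against 575 with vehicle (-0.19, -0.24 to -0.15). Prdx4, the member of the endoplasmic reticulum, was at 25.8 CPM with entacapone against 29.9 with vehicle, barely beyond counting error and within it under upper-quartile scaling. Prdx6b had 0 reads in both libraries.

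In the thioredoxin system Txnip stood out by level. TXNIP binds and inhibits thioredoxin, curbs glucose uptake, and its gene is induced by glucose. Txnip had 24739 reads (1933 CPM) in the entacapone and 17517 reads (1268 CPM) in the vehicle library, or 1.52-fold (1.49 to 1.55). Txn1, the cytosolic thioredoxin, had 133 CPM with entacapone against 113 with vehicle (log2 ratio 0.23, 0.13 to 0.33). Txnip reads per Txn1 read were 14.6 with entacapone against 11.2 with vehicle (ratio 1.30, 1.21 to 1.40). The antisense RNA gene Gm15441 lies under 19.4% of the Txnip exonic bases and had 11 reads with entacapone against 6 with vehicle. As the counting mode is not given, how reads in this overlap were counted is not known.

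The promoter of Txnip is shown because Txnip is the member with the most reads and its start region holds a known glucose-responsive element. The sequence is the RefSeq one for chr3:96557707-96558006 (GRCm38.p6, plus strand), from 250 bases before to 50 after the start. Capitals mark the match to the carbohydrate response element searched on both strands (the boxes CACGNG and CNCGNG with any 5 bases between them), which begins 85 bases before the start.
Txnip: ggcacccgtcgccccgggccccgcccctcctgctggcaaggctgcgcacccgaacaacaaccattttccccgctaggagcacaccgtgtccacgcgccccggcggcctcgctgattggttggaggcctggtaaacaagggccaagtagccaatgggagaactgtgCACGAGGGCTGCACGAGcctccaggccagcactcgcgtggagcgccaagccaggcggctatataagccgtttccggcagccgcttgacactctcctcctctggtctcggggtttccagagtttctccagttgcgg
Of 32851 mouse promoters of this length, 0.365% held a match, and Txnip was the 1 member among the 57 with a promoter in the table that did. The match describes letters only.

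Among the other thioredoxin genes, mitochondrial Txn2 was higher at 126 CPM with entacapone against 106 with vehicle (log2 ratio 0.25, 0.14 to 0.35). The reductase Txnrd3, which is best known from testis, was higher at 31.3 CPM with entacapone against 21.9 with vehicle (0.52, 0.30 to 0.74). The cytosolic reductase Txnrd1 (79.6 CPM with entacapone against 74.0 with vehicle) and the mitochondrial Txnrd2 (30.8 CPM with entacapone against 27.7 with vehicle) lay within counting error.

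Of 12 thioredoxin-domain proteins, 10 were measured, 2 were higher and 3 lower beyond counting error. These are 20% and 30%, beside 20.2% and 21.1% of all measured genes. Txndc17, a cytosolic thioredoxin-like reductant, had 92.7 CPM with entacapone against 78.4 with vehicle (0.24, 0.12 to 0.36). Txnl4b, a splicing factor relative, had 18.7 CPM with entacapone against 15.1 with vehicle, within counting error under total counts. Txndc16 was lower at 27.2 CPM with entacapone against 34.5 with vehicle (-0.34, -0.55 to -0.14), Txndc15 at 101 CPM with entacapone against 120 with vehicle (-0.26, -0.37 to -0.15) and Txndc5, a disulfide isomerase, at 138 CPM with entacapone against 149 with vehicle (-0.11, -0.20 to -0.02). Txndc11, Txndc12, Txndc9, Txnl1 and Txnl4a lay within counting error, with log2 ratios between -0.15 and 0.15. Txndc2 and Txndc8, known from testis, had 0 reads.

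The members whose proteins work in the endoplasmic reticulum or in membranes fed by it were grouped after their values were seen: Gpx7, Gpx8, Prdx4, Txndc5, Txndc11, Txndc12, Txndc15 and Txndc16. The secreted members Gpx3 and Sod3 are not among them. Of the 8, 5 were lower beyond counting error and 3 lay within it, beside 21.1% lower among all measured genes, and the median log2 ratio was -0.20. As the values were known when the set was made, this count supports nothing beyond the values of its genes. Their summed level was 397 CPM with entacapone against 456 with vehicle. Secretory cells such as fibroblasts are rich in this machinery. Fibroblast markers were lower in the same library, with Col3a1 at 2302 CPM with entacapone against 3716 with vehicle, Dpp4 at 8.91 CPM with entacapone against 23.5 with vehicle and Pdgfra within counting error at 82.1 CPM with entacapone against 82.7 with vehicle. Their part in this group was not tested. Prdx3, Txn2, Txnrd2 and Sod2, mitochondrial members also grouped after their values were seen, had a summed 494 CPM with entacapone against 449 with vehicle. This set is not a full list of members with mitochondrial protein.

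**Figure D3:**
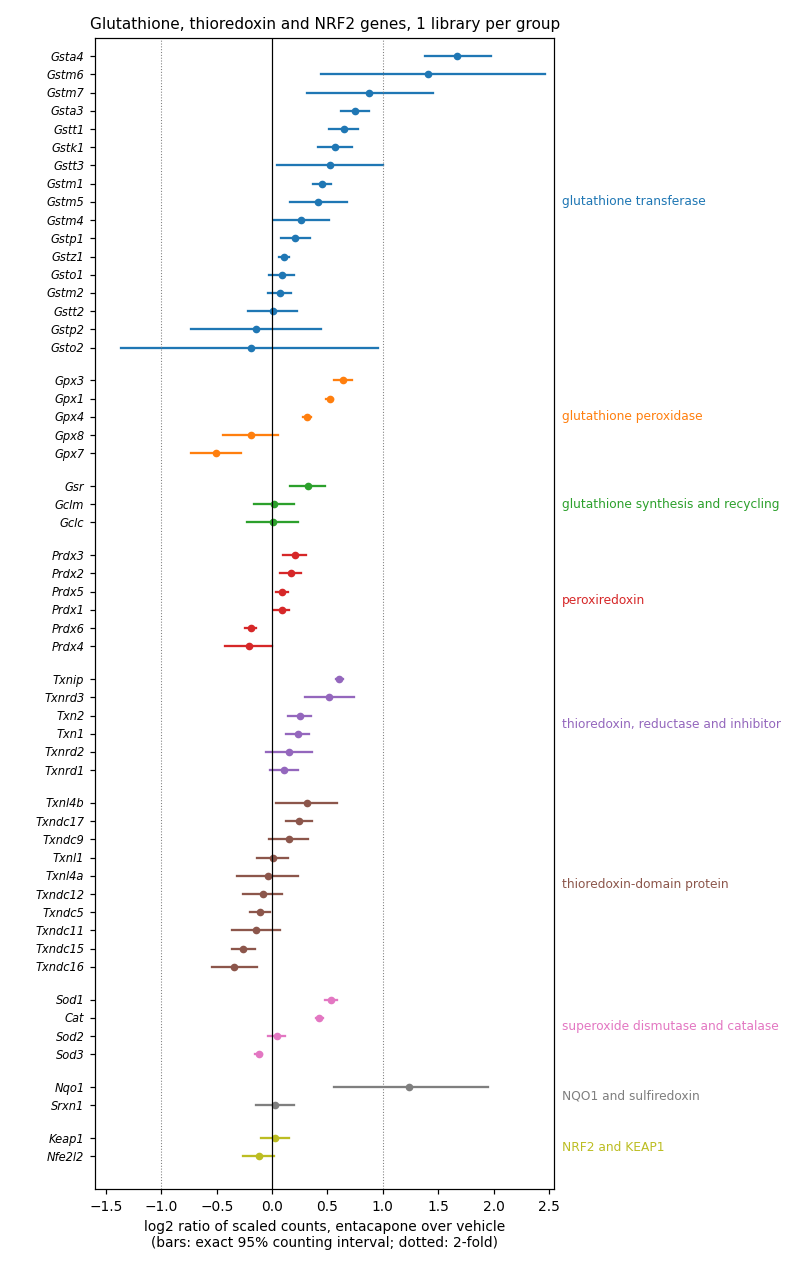
Log2 ratio of scaled counts, entacapone over vehicle, for the 55 measured members by family, with exact 95% counting intervals as bars and dotted lines at 2-fold. Gsta4 (1.67), Gstm6 (1.41) and Nqo1 (1.24) lie past 2-fold, and Gpx7 is lowest at -0.51.

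NRF2, its inhibitor KEAP1 and both subunits of glutamate-cysteine ligase lay, at the transcript level, within counting error. Nfe2l2, which encodes NRF2, had 57.1 CPM with entacapone against 62.2 with vehicle (log2 ratio -0.12, -0.27 to 0.02), and was lower beyond counting error with total counts (-0.16). Keap1 had 78.3 CPM with entacapone against 76.9 with vehicle. Glutamate-cysteine ligase, the rate-limiting enzyme of glutathione synthesis, was level in both of its subunits. The catalytic Gclc stood at 23.5 CPM with entacapone against 23.5 with vehicle (0.00, -0.23 to 0.23) and the modifier Gclm at 39.6 CPM with entacapone against 39.2 with vehicle (0.02, -0.16 to 0.19). Srxn1, which repairs over-oxidised peroxiredoxins, had 43.2 CPM with entacapone against 42.4 with vehicle (0.03, -0.14 to 0.20). Gsr, which recycles oxidised glutathione, was higher at 56.7 CPM with entacapone against 45.4 with vehicle (0.32, 0.17 to 0.48).

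Nqo1, a quinone reductase and widely used NRF2 readout, departed from the others on few reads. It had 59 reads (4.61 CPM) in the entacapone and 27 reads (1.95 CPM) in the vehicle library, or 2.36-fold (1.47 to 3.87). Nqo1 reads per Gclm read were 0.116 with entacapone against 0.0499 with vehicle (ratio 2.33, 1.43 to 3.89). Epithelium markers, which were higher in the same library, included Krt14 at 29.1 CPM with entacapone against 7.53 with vehicle and Epcam at 3.44 CPM with entacapone against 1.16 with vehicle. Their part in the Nqo1 value was not tested. Over 8 textbook targets among the members (Gclc, Gclm, Gsr, Nqo1, Srxn1, Txnrd1, Txn1 and Prdx1), 4 were higher beyond counting error and 0 were lower (median log2 ratio 0.10), beside 20.2% and 21.1% of all measured genes. This set was put together after the values were seen and leaves out the glutathione transferases, several of which are also known NRF2 targets.

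Antioxidant response elements, to which NRF2 binds with a small MAF partner, were searched on both strands as TGACNNNGC. Of 57 members with a RefSeq promoter (250 bases before to 50 after the start), 12 held a match. By promoter the shares were 16.2% of 74 member promoters and 12.4% of all 32851. Stretches around the match (GRCm38.p6, each in its gene's own direction, the match in capitals) are shown to set members that were higher beside NRF2 targets that were level.
Gsta3 (chr1:21240444-21240492, plus strand, higher): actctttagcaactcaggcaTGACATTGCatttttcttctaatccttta
Gstm5 (chr3:107895792-107895840, plus strand, higher): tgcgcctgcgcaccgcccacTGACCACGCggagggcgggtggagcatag
Gstm7 (chr3:107931715-107931763, minus strand, higher): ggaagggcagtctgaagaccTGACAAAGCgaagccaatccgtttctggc
Sod1 (chr16:90220686-90220734, plus strand, higher): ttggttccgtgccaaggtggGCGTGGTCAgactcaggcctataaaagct
Prdx1 (chr4:116685446-116685494, plus strand, slightly higher): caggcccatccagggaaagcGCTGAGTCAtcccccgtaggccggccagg
Gclm (chr3:122245403-122245451, plus strand, level): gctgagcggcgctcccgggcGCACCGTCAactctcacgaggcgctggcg
Txnrd1 (chr10:82859094-82859142, plus strand, level): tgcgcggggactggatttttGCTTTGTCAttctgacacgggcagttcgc
Srxn1 (chr2:152105532-152105573, plus strand, level): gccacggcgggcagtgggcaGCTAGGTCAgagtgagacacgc
The Srxn1 match begins 28 bases after the start, and the other matches shown lie before it. These matches describe letters only. Prdx1 alone among the members matched the stricter form TGACTCAGC, on the reverse strand, which 0.454% of all promoters hold. Over all 55 measured members, with or without a match, 52.7% were higher and 12.7% lower beyond counting error. Of the 11 measured members with a match, Gsta3, Gstm5, Gstm7, Sod1 and Prdx1 were higher beyond counting error and Txndc5 was lower (-0.11). Gclm, Txnrd1, Srxn1, Nfe2l2 (-0.12) and Txndc11 (-0.15) lay within it, and Txndc2, the other member with a match, had no reads. Gsta4, Gsr, Gclc, Sod3 and Prdx6 were among 9 members without a promoter in the table, and Nqo1 held no match in its window.

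Other NRF2 targets, outside the members, were not higher as a list. Of 20 measured, 5 were higher and 6 lower beyond counting error, beside 20.2% and 21.1% of all measured genes, and their median log2 ratio was -0.07. Hmox1, haem oxygenase, stood at 86.4 CPM with entacapone against 74.9 with vehicle (0.21, 0.08 to 0.33). Mafg (0.43) and Ugdh (0.27) were highest, and Abcc2, within counting error at -1.02, and Osgin1 (-0.68) were lowest. The cystine transporter Slc7a11 had 7 reads in both libraries.

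Several regulators of NRF2 were higher, while NRF2 itself lay within counting error. Of 16 measured, 10 were higher and 2 lower beyond counting error (62.5% and 12.5%, beside 20.2% and 21.1% of all measured genes), and their median log2 ratio was 0.18. Bach1, a repressor that competes at antioxidant response elements, stood at 41.6 CPM with entacapone against 28.7 with vehicle (0.54, 0.35 to 0.73). The small MAF partners were also higher, Maff at 50.2 CPM with entacapone against 25.3 with vehicle (0.99, 0.80 to 1.18) and Mafk at 108 CPM with entacapone against 67.9 with vehicle (0.66, 0.54 to 0.79). Nfe2l3, an NRF2 relative, was highest at 1.11 on 36 reads with entacapone against 18 with vehicle. Mafg and Sqstm1 belong to both lists. Under upper-quartile factors 1 regulator was lower. Dpp3 (-0.16) and Btrc (-0.12, within counting error) were lowest.

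Neighbouring steps of the thiol network held genes called in both directions, to be read beside the 20.2% higher and 21.1% lower among all measured genes. In glutathione synthesis, transport and breakdown, 6 of 16 measured genes were higher and 4 lower (median 0.10). Cbs, which feeds cysteine synthesis, was highest at 19.6 CPM with entacapone against 11.4 with vehicle (0.78), with Ggt7 at 0.57 within counting error. The peptidases Anpep (27.9 CPM with entacapone against 59.4 with vehicle, -1.09) and Dpep1 (-0.51) were lowest. Among glutaredoxins, methionine sulfoxide reductases and sestrins, 5 of 11 were higher and 3 lower (median 0.05). Glrx led at 25.7 CPM with entacapone against 17.2 with vehicle (0.58), followed by Sesn1 (0.41). Sesn3 (-0.58) and Sesn2 (-0.28) were lowest.

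For NADPH supply 5 of 19 genes were higher and 5 lower (26.3% each, near the shares of all measured genes), with a median of 0.03. H6pd, the pentose phosphate entry enzyme of the endoplasmic reticulum, stood at 884 CPM with entacapone against 562 with vehicle (0.65, 0.61 to 0.69), and Tkt at 699 CPM with entacapone against 464 with vehicle (0.59). The cytosolic entry enzyme G6pdx lay within counting error at 326 CPM with entacapone against 333 with vehicle. Aldh1l2, on 9 reads with entacapone against 37 with vehicle (-1.93), and Idh1 (159 CPM with entacapone against 226 with vehicle, -0.51) were lowest. Microsomal glutathione transferases and related genes gave 3 higher and 4 lower of 9 (median -0.06). Mgst3 (261 CPM with entacapone against 195 with vehicle, 0.42) and Ptges (0.33) were highest. Hpgds, a prostaglandin synthase also made by mast cells and macrophages, had 29 reads with entacapone against 94 with vehicle (-1.59), and Alox5ap was at -0.81. Macrophage markers were lower in the same library, and their part in both values was not tested.

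Of 16 measured selenoproteins and selenium factors, 3 were higher and 4 lower (median -0.02). Pstk and Selenow were both highest at 0.37, the second with 407 CPM with entacapone against 315 with vehicle. Lrp8 (-0.60, within counting error) and Selenom (-0.51) were lowest, and the selenium carrier Selenop stood at 847 CPM with entacapone against 1116 with vehicle. Ferritins and haem genes gave 3 higher and 1 lower of 8 (median 0.04). Fth1, the ferritin heavy chain, was highest at 2120 CPM with entacapone against 1552 with vehicle (0.45), with Hmox1 next, and Slc40a1, the iron exporter (-0.57), and Blvra (-0.04, within counting error) were lowest.

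**Figure D4:**
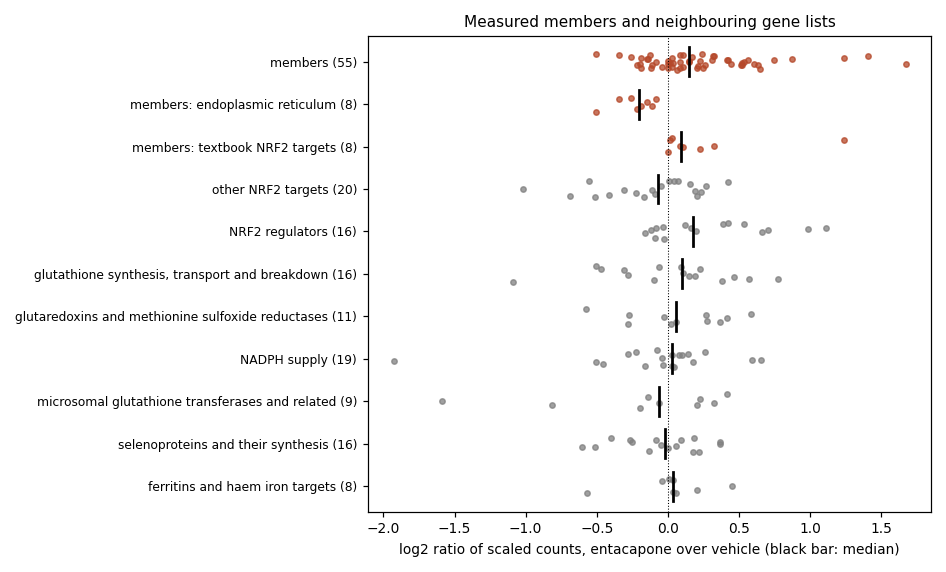
Log2 ratio, entacapone over vehicle, of each measured gene (points, spread vertically for sight) in the members, in 2 sets of members made after the values were seen, and in 8 neighbouring lists, with the median as a black bar. The members' median is 0.15, that of the endoplasmic reticulum set -0.20 and that of the other NRF2 targets -0.07.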

How the data were processed

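Poly(A) RNA was sequenced from TruSeq RNA v2 libraries in reads of 101 bases, per the labels' protocols. The deposited values are raw counts of reads for each Ensembl gene, in headerless files by the authors. Per the submitters' processing notes, TopHat2 2.1.1, HTSeq 0.6.0 and mm10 were used. No label gives the annotation release, counting mode or strand setting, and the kit does not mark strand.

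Symbols, positions and exon lengths came from GENCODE M21 (GRCm38, the assembly of mm10) by Ensembl identifier for 35533 genes. The 1782 unmatched genes held 0.188% of the entacapone and 0.181% of the vehicle reads and stayed in the library sizes. CPM values used TMM-scaled library sizes from edgeR 4.0.16 (factors 0.986 and 1.01 for the entacapone and vehicle libraries). Ratio intervals are exact 95% intervals from the Clopper-Pearson interval of a gene's entacapone reads. They span a factor of 1.33 to either side at 100 reads per library and 1.09 at 1000. Reads carry no molecular identifiers. A library without reads of a gene was set to 3 counts (0.234 CPM for entacapone, 0.217 CPM for vehicle). Ratios of reads between a pair of genes are conditional odds ratios with exact intervals, for 7 pairs chosen after values were seen. Shared sequence is the share of a gene's 101-base transcript stretches found in transcripts of another gene.

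The intervals were tested on simulated data that held counting error only. That test cannot speak to variation between mice or libraries. Members and lists were chosen with earlier results of these data known. Named genes are preset members, the most abundant and the 2 highest and 2 lowest of each family or list, and those at least 2-fold different; others were chosen after their values were seen. Listed symbol Hrg1 matched no gene. DESeq2 1.42.0 size factors were 1 alternative.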

Additional observations from a re-analysis of the deposited data

How the results depend on the processing

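With DESeq2 size factors, total counts or upper-quartile factors, between 25 and 29 members were higher beyond counting error and between 6 and 8 lower, and the members' median log2 ratio lay between 0.11 and 0.16. The median of all measured genes moved by at most 0.04 under these scalings. The count of members at least 2-fold higher was 3, and it was 1 with a minimum of 5 CPM, 4 with no minimum, 8 at a limit of 1.5-fold, and 1 without the alpha and mu transferases, where the members' median was 0.09. It stayed at 3 without the 14 measured members that share over 5% of their sequence or exons with another gene, a setting chosen after seeing the data. The counts at least 2-fold lower were 0 in every setting run. The mean of the members was 0.23. The list medians for NADPH supply (-0.01) and ferritins (0.00) changed sign with total counts, and those for microsomal transferases (0.07) and selenoproteins (0.00) with a minimum of 5 CPM. Gstm4 lay within counting error with DESeq2 size factors (0.25) and total counts (0.22). No paired analysis was possible because each group holds 1 library, and no replicate could be left out. A gene with 30 reads in both libraries carries an interval of a factor of 1.72 to either side.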
